A study of Mus musculus with 10 samples.

Results

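The genes described here encode 10 cytokine receptor chains, Il2ra, Il2rb, Il2rg, Il4ra, Il7r, Il15ra, Il21r, Il6ra, Il6st and Il12rb2, which are the receptors built on the common gamma chain and related receptors of the IL-6 and IL-12 families. They were chosen by name from the 57010 genes of the deposited table, each name matched 1 row, and all 10 passed the filter on low counts that left 18966 genes for testing. RNA was measured by bulk sequencing of mouse splenic CD8+ T cells, the cytotoxic lineage of T cells, in 10 libraries from 5 mice. The 3 conditional knockout mice, called cKO here, had the genotype Dusp2fl/fl-E8I-cre+/-, and the 2 control mice had the genotype Dusp2fl/fl-E8I-cre-/-. Cells of each mouse were kept in culture for 24 h, either activated with anti-CD3/CD28 beads, which engage the T cell receptor and its co-stimulatory partner, or rested in the same medium without beads. The title of the study puts DUSP2, a phosphatase of the nucleus that acts on MAP kinases, in effector programming of these cells. The groups were thus activated cKO (3 libraries), activated control (2), rested cKO (3) and rested control (2), all from mice with floxed Dusp2. E8I-cre is driven by a Cd8a enhancer and acts in CD8+ T cells, and since all cKO and no control mice carried cre, an effect of cre itself and of the loss of Dusp2 cannot be told apart. cKO mice 1 and 2 and control mouse 1 were male, and cKO mouse 3 and control mouse 2 were female.

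The common gamma chain, encoded by Il2rg, is shared by the receptors for IL-2, IL-4, IL-7, IL-9, IL-15 and IL-21, and pairs with a chain that gives each receptor its ligand. Il2rb joins it in the receptors for IL-2 and IL-15, while Il2ra and Il15ra add high-affinity binding of those ligands. These receptors signal through JAK1 and JAK3 to STAT proteins, with STAT5 prominent for IL-2, IL-7 and IL-15. In naive CD8+ T cells IL-7 is known as a survival signal, and T cell activation is known to bring in the high-affinity IL-2 receptor. gp130, encoded by Il6st, is the signal-transducing chain for IL-6 and its relatives, and Il12rb2 encodes the chain of the IL-12 receptor that recruits STAT4.

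The libraries held 51203786 to 65135435 counts, so that 3 counts, the floor used here, correspond to 0.0461 to 0.0586 CPM (counts scaled to a common library size). Dusp2 itself had 56.3, 46.4 and 52.6 CPM in activated cKO libraries, against 292 and 299 CPM in activated control libraries. At rest it had 25.0, 24.8 and 28.1 CPM in cKO libraries, against 87.8 and 97.4 CPM in control libraries. For cKO mouse 3 the title of each library names another treatment or genotype than its genotype and treatment fields and library name do. The groups follow those fields, and the tests of the 10 genes and the counts of genes called were also run without this mouse. Cd8a ranged from 512 to 659 CPM over all libraries and Cd3e from 297 to 402 CPM. Foxp3 stayed at or below 0.885 CPM, Cd4 at or below 1.22 CPM, Lyz2 at or below 0.949 CPM, and Ncr1, the NK cell receptor gene, at or below 0.069 CPM. Ighm, the heavy chain gene of IgM and a B cell marker, had 223 to 354 CPM over the 10 libraries.

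RefSeq promoter windows (250 bases before to 50 bases after a start site) were found for 9 of the 10 genes, in 10 windows, since Il15ra has 2 start sites. None was found for Il2rb. They are on GRCm38.p6, while the deposited coordinates are on mm39. Those printed are of the pair Il2ra and Il15ra, which are neighbours on chromosome 2 and both rose on activation, of the pair Il4ra and Il21r, neighbours on chromosome 7 that moved in opposite directions, and of Il7r and Il12rb2. Capitals mark matches, on either strand, to TTCNNNGAA (letters of STAT sites, also sought with 4 bases between its ends), TGANTCA (AP-1), CCGGAAG (ETS) and GTAAACA (FOXO), and the sequences run 5′ to 3′ on the gene's strand.
Il2ra (chr2:11642542-11642841, plus strand): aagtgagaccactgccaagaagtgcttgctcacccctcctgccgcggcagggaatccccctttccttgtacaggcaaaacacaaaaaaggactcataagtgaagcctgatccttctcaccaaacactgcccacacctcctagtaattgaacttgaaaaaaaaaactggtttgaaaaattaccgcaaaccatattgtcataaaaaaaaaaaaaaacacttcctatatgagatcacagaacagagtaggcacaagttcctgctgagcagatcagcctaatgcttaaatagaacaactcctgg
Il15ra (chr2:11705043-11705342, plus strand): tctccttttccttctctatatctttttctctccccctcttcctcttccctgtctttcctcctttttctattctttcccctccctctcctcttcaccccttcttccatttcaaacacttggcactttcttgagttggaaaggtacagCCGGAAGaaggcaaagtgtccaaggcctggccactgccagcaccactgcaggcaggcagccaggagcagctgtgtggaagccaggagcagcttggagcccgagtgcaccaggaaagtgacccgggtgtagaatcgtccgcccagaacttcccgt
Il15ra (chr2:11705462-11705761, plus strand): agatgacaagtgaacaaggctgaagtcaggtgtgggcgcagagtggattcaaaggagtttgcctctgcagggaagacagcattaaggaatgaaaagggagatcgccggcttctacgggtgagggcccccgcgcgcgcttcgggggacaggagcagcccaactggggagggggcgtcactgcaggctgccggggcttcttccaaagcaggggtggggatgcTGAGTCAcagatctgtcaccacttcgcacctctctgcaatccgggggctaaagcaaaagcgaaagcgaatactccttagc
Il4ra (chr7:125552021-125552320, plus strand): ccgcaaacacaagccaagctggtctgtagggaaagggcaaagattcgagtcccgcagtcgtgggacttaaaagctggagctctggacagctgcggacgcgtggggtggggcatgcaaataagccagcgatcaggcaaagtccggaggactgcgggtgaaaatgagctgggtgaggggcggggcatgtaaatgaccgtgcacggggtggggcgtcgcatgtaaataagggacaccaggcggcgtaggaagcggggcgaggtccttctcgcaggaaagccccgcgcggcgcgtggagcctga
Il21r (chr7:125603179-125603478, plus strand): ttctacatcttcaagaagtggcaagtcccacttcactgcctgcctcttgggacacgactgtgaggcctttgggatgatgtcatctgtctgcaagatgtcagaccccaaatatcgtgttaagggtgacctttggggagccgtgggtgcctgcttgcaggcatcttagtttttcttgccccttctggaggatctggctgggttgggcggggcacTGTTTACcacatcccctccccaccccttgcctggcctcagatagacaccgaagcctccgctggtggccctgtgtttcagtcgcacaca
Il7r (chr15:9529827-9530126, minus strand): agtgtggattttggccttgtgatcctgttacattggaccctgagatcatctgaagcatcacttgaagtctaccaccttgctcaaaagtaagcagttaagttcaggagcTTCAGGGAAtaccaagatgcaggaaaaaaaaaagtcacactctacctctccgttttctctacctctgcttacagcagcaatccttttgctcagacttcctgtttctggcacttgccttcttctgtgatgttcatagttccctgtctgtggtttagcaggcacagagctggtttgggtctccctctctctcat
Il12rb2 (chr6:67376139-67376438, minus strand): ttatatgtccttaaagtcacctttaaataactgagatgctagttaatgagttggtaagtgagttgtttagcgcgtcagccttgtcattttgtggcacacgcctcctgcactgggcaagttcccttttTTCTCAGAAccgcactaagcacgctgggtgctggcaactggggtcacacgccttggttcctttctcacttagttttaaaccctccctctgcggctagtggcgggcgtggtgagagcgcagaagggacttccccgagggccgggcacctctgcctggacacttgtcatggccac
TTCNNNGAA was found in the Il7r and Il12rb2 windows and in 8.3% of all 32851 windows. With 4 bases between its ends it was found in none of the 10 windows and in 6.95% of all. TGANTCA was found in the window of the second Il15ra start site and in 7.81% of all, and CCGGAAG in that of the first Il15ra start site, in Il2rg and in 8.86% of all. GTAAACA was found in the Il21r window and in 3.65% of all. The short GGAAA core of NFAT sites, left in lower case, was found for 6 of the 9 genes with a window and in 61.3% of all windows. These matches describe letters and were not tested for binding.

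Levels of different genes were compared by FPKM, which divides by gene length. At rest Il7r, the IL-7 receptor alpha chain, was highest, with 323 ± 19.2 FPKM in cKO cells (SD, n = 3) and 334 ± 12.6 FPKM in control cells (SD, n = 2), and it stood 118th and 116th among all genes of the table by mean FPKM. Il2rg came next with 176 ± 9.17 FPKM in cKO and 176 ± 7.62 FPKM in control cells, then Il2rb with 83.7 ± 10.6 and 73.3 ± 13.7 FPKM. Il6ra, Il6st and Il4ra lay close together, between 36.3 and 41.3 FPKM in cKO cells and between 33.3 and 43.1 FPKM in control cells. In cKO cells neighbours in this trio did not differ beyond their SDs, and in control cells Il6st and Il4ra did not. Il21r had 24.4 ± 0.162 FPKM in cKO and 22.5 ± 0.0594 FPKM in control cells, and Il15ra had 2.03 ± 0.434 and 1.49 ± 0.528 FPKM. Il12rb2 and Il2ra were lowest and within their spread of each other, at 0.349 and 0.348 FPKM in cKO cells and 0.277 and 0.217 FPKM in control cells.

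After activation Il2rg led in both genotypes, with 290 ± 23.5 FPKM in cKO and 287 ± 0.520 FPKM in control cells. Il2rb followed with 125 ± 2.97 FPKM in cKO and 109 ± 6.57 FPKM in control cells. Il7r, at 84.5 ± 21.9 and 94.1 ± 19.2 FPKM, and Il2ra, at 75.1 ± 8.50 and 69.2 ± 7.49 FPKM, then did not differ beyond their SDs in either genotype. In control cells Il7r also lay within the SDs of Il2rb. Il21r and Il6st came next, in this order and within their spread in cKO cells, and with Il6st above Il21r in control cells. Il4ra (25.3 and 24.5 FPKM in cKO and control cells), Il6ra (11.7 and 13.2 FPKM), Il15ra (7.02 and 7.29 FPKM) and Il12rb2 (2.63 and 2.16 FPKM) were lower, each beyond the SDs of the next. The sum over the 10 genes was 703 ± 23.1 FPKM in activated cKO, 690.1 ± 21.5 FPKM in activated control, 724 ± 18.1 FPKM in rested cKO and 720.3 ± 15.5 FPKM in rested control cells. The makeup of this sum shifted. Il7r supplied 12.0% ± 2.89 of it in activated and 44.6% ± 1.55 in rested cKO cells, and 13.6% ± 2.35 and 46.3% ± 0.755 in activated and rested control cells. Il2rg supplied 41.2% ± 2.50 in activated and 24.3% ± 1.74 in rested cKO cells, and Il2ra 10.7% ± 1.38 and 0.0479% ± 0.0145. The ratio of Il7r to Il2ra FPKM was 0.786 to 1.64 in activated and 801 to 1377 in rested cKO libraries, and 1.08 to 1.68 in activated and 1259 to 2015 in rested control libraries.

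**Figure D1:**
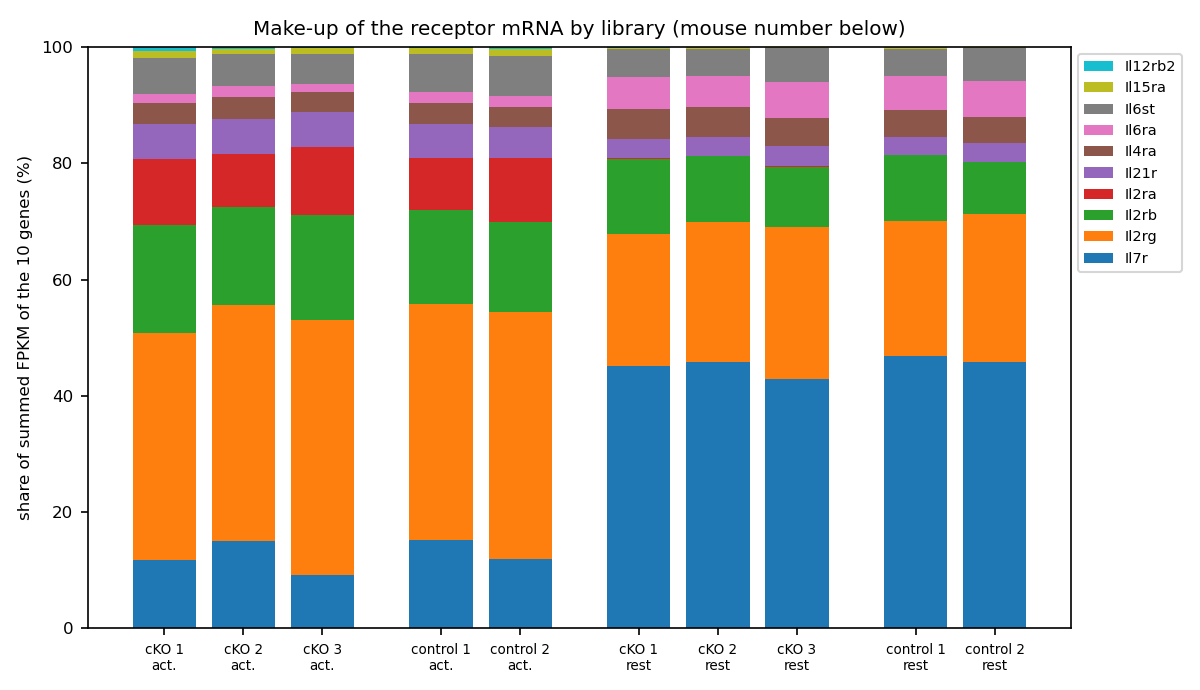
Share of each gene in the summed FPKM of the 10 receptor genes (y axis, percent), 1 bar per library, grouped as activated cKO, activated control, rested cKO and rested control. Il7r takes between 42.9% and 46.8% of the bar in rested libraries and between 9.20% and 15.3% in activated ones, while the Il2ra segment is seen in activated libraries and is too thin to see at rest.

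Activation changed most of these genes in both genotypes, in the same direction wherever both passed the test. By the quasi-likelihood test of edgeR, with p-values adjusted (Benjamini-Hochberg) over all 18966 genes, 6 of 10 were higher and 3 lower in activated cKO cells than in rested ones, and 7 were higher and 3 lower in control cells. Over all genes, 63.4% passed in cKO cells (31.5% higher, 31.9% lower) and 56.1% in control cells (28.5% higher, 27.6% lower). The median log2 fold change of the 10 genes was 0.59 in cKO and 0.57 in control cells, against -0.01 and -0.00 over all genes tested, and the median size of change was 1.24 in both, against 0.58 and 0.56. Activated and rested libraries did not overlap for 9 of the 10 genes in cKO and for 10 of 10 in control cells, against 66.9% and 76.8% of all genes. In bulk RNA a change in the number of cells that carry a transcript and a change in RNA per cell cannot be told apart. Rises and falls are relative to the scaled library, and a change in the total RNA of a cell was not measured.

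**Figure D2:**
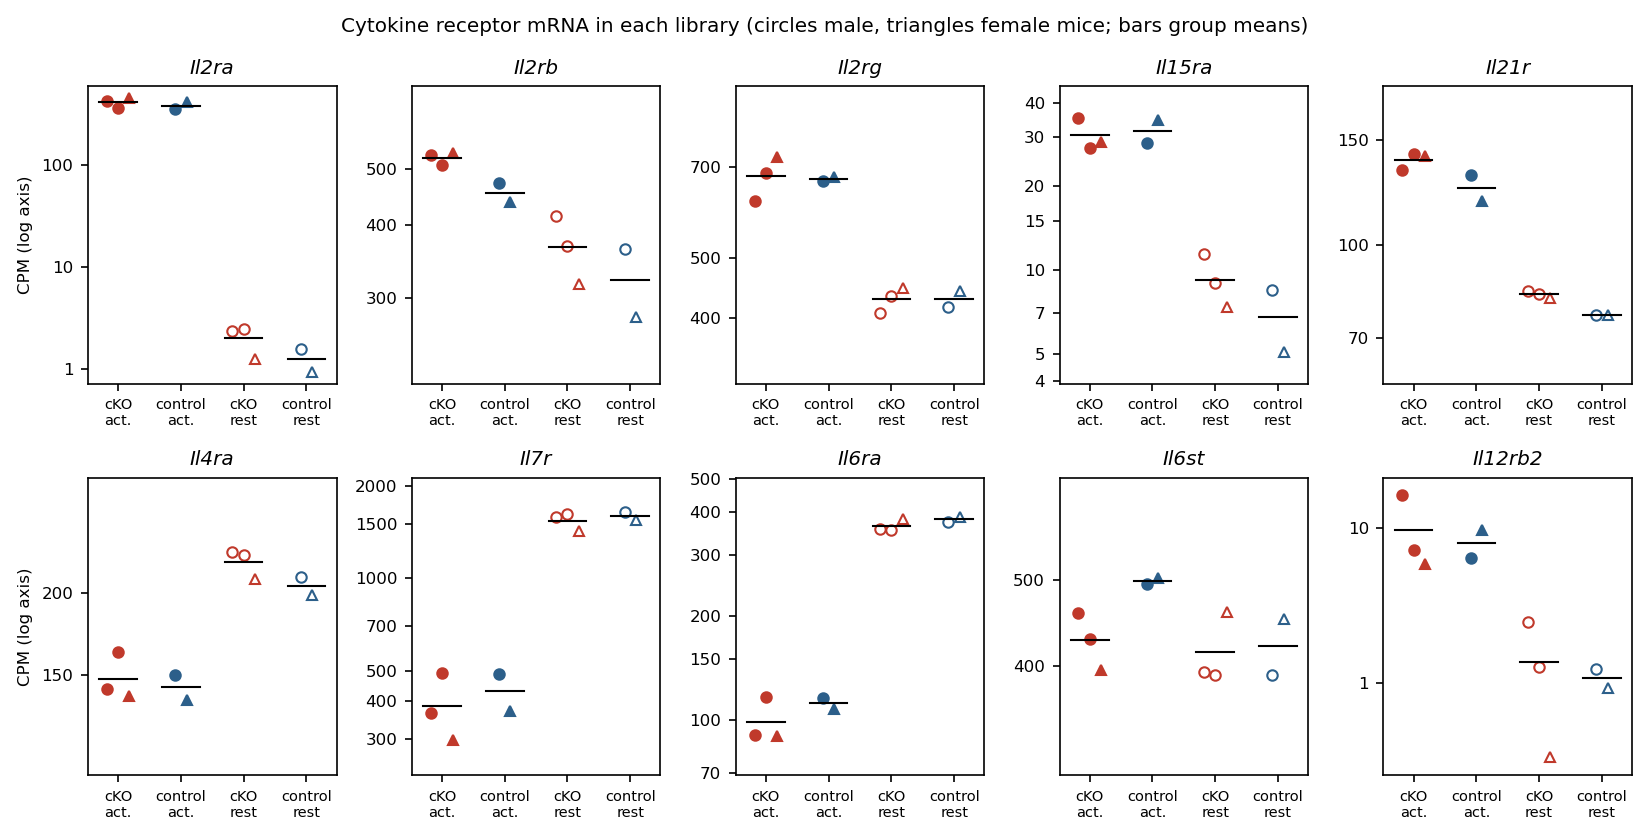
CPM (log axis, its range differing between panels) of each receptor gene in every library, in the order activated cKO, activated control, rested cKO and rested control, with circles for male and triangles for female mice and bars at group means. Il2ra lies between 355 and 464 CPM in activated and between 0.940 and 2.47 CPM in rested libraries, while activated and rested cKO points of Il6st overlap.

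Il2ra, the alpha chain (CD25) that gives the IL-2 receptor its high affinity, had 426, 367 and 464 CPM in activated cKO libraries and 2.37, 2.47 and 1.27 CPM in rested ones. In control libraries it had 355 and 419 CPM after activation and 1.60 and 0.940 CPM at rest. Every activated library was far above every rested one, and the log2 fold change was 7.68 (SE 0.26, adjusted p = 2.15e-07) in cKO and 8.25 (SE 0.33, adjusted p = 9.84e-07) in control cells, or 205-fold and 304-fold. The lowest rested values were those of the female mice in both genotypes, which also had the largest change on activation in their genotype (log2 8.51 in cKO mouse 3 and 8.80 in control mouse 2). Il2ra is also known as a gene of regulatory T cells. The summed level of 11 markers of CD4+ and regulatory T cells was 201 to 260 CPM in activated and 71.5 to 95 CPM in rested cKO libraries, and 215 CPM in both activated and 75.7 to 79.6 CPM in rested control libraries, with 6 of 11 higher and 1 lower on activation in each genotype. Over all genes 31.5% were higher and 31.9% lower in cKO cells, and 28.5% and 27.6% in control cells. Among the 11, Ctla4 had a log2 fold change of 2.63 in cKO and 2.72 in control cells, and Cd4 stayed at or below 1.22 CPM. Foxp3, which defines regulatory T cells, had 0.387 to 0.707 CPM in activated and 0.602 to 0.885 CPM in rested cKO libraries. In control libraries it had 0.634 to 0.736 CPM activated and 0.461 to 0.789 CPM rested. The part of such cells in the Il2ra values was not tested.

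Il2rb, the beta chain shared by the IL-2 and IL-15 receptors, had 528, 507 and 533 CPM in activated cKO libraries and 416, 369 and 318 CPM in rested ones. Control libraries had 472 and 438 CPM after activation and 365 and 279 CPM at rest. Activated libraries were above rested ones without overlap in each genotype, and Il2rb rose by 0.52 (SE 0.08, adjusted p = 0.000108) in cKO and by 0.51 (SE 0.10, adjusted p = 0.00083) in control cells on the log2 scale. Il2rg, the common chain itself, had 617, 684 and 728 CPM in activated cKO libraries and 408, 434 and 447 CPM in rested ones. Control libraries had 665 and 674 CPM after activation and 417 and 442 CPM at rest. It rose by 0.65 (SE 0.06, adjusted p = 2.55e-07) and 0.64 (SE 0.07, adjusted p = 3.45e-06) on the log2 scale, in every mouse by between 0.60 and 0.70.

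Il15ra, which binds IL-15 and can present it to neighbouring cells, had 35.3, 27.5 and 28.8 CPM in activated cKO libraries and 11.4, 8.995 and 7.38 CPM in rested ones. In control libraries it had 28.6 and 34.8 CPM after activation and 8.52 and 5.09 CPM at rest. The groups were apart in both genotypes, with log2 fold changes of 1.73 (SE 0.20, adjusted p = 5.58e-05) in cKO and 2.25 (SE 0.25, adjusted p = 6.2e-05) in control cells. Il21r, the ligand-binding chain for IL-21, a cytokine of helper T cells, had 134, 142 and 141 CPM in activated cKO libraries and 83.8, 83.0 and 81.7 CPM in rested ones. Control libraries had 131 and 118 CPM after activation and 76.5 and 76.4 CPM at rest. Its spread within groups was small, and it rose by 0.75 (SE 0.05, adjusted p = 3.68e-08) in cKO and 0.71 (SE 0.06, adjusted p = 7.81e-07) in control cells on the log2 scale.

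Il7r had 365, 492 and 298 CPM in activated cKO libraries and 1582, 1617 and 1430.0 CPM in rested ones. Its control libraries had 488 and 369 CPM after activation and 1639 and 1547 CPM at rest. All activated libraries were below all rested ones, and Il7r fell by 2.02 (SE 0.12, adjusted p = 2.76e-07) in cKO and by 1.91 (SE 0.15, adjusted p = 2.92e-06) in control cells on the log2 scale, to 0.247 and 0.266 of the rested level. Among activated libraries the 2 female mice had the lowest level of their genotype. Il4ra, the alpha chain of the IL-4 and IL-13 receptors, had 143, 163 and 139.5 CPM in activated cKO libraries and 231, 229 and 209.7 CPM in rested ones. The control libraries had 150.1 and 138 CPM after activation and 211 and 198 CPM at rest. It fell without overlap, by 0.59 (SE 0.05, adjusted p = 4.82e-07) in cKO and by 0.51 (SE 0.07, adjusted p = 1.89e-05) in control cells on the log2 scale.

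The IL-6 receptor genes parted. Il6ra, the IL-6-binding chain, had 90.3, 116 and 89.9 CPM in activated cKO libraries and 358, 354 and 382 CPM in rested ones. Control libraries had 116 and 107 CPM after activation and 375 and 388 CPM at rest. It fell in every mouse, by 1.89 (SE 0.09, adjusted p = 7.72e-09) in cKO and by 1.77 (SE 0.11, adjusted p = 1.28e-07) in control cells on the log2 scale.

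Il6st had 459.5, 429 and 395 CPM in activated cKO libraries and 394, 390.3 and 460.1 CPM in rested ones. These groups overlapped, since the 2 male cKO mice were higher and the female cKO mouse 3 lower after activation, and the log2 fold change was 0.05 (SE 0.08, 95% interval -0.11 to 0.21, adjusted p = 0.589). In control libraries Il6st had 495 and 504 CPM after activation and 390.4 and 451 CPM at rest. It rose by 0.25 (SE 0.09, adjusted p = 0.0352) on the log2 scale in control cells. That call is fragile. With the mouse as a replicate block the adjusted p was 0.0563 at the same fold change, without the sex term it was 0.0586, and without control mouse 1 or 2 it was 0.414 or 0.0674. In cKO cells Il6st rose by 0.18 (adjusted p = 0.0394) without cKO mouse 3 and by 0.20 (adjusted p = 0.0183) in males alone. The ratio of Il6ra to Il6st FPKM was 0.252 to 0.348 in activated and 1.07 to 1.17 in rested cKO libraries, and 0.274 to 0.300 in activated and 1.10 to 1.23 in rested control libraries.

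Il12rb2, the IL-12 receptor chain that is typical of type 1 responses, had 16.2, 7.16 and 5.87 CPM in activated cKO libraries and 2.47, 1.27 and 0.332 CPM in rested ones. In control libraries it had 6.37 and 9.70 CPM after activation and 1.24 and 0.922 CPM at rest. Activated libraries were above rested ones in each genotype, while libraries of the same group spread widely. It rose by 2.89 (SE 0.64, adjusted p = 0.00824) in cKO and by 3.01 (SE 0.81, adjusted p = 0.0203) in control cells on the log2 scale. The call was lost in cKO cells without cKO mouse 2 (adjusted p = 0.0675), and in control cells without cKO mouse 2 (0.0751), without control mouse 1 (0.056) or 2 (0.128), and in males only (0.169). In the deposited coordinates its span overlaps that of Serbp1, an abundant RNA-binding protein gene, by 6419 bases. By the strand annotation they lie on opposite strands, and whether counting used the strand is not given, so reads of the overlap cannot be told apart. Serbp1 had 657 ± 70.8 CPM in activated and 293 ± 8.39 CPM in rested cKO cells (SD, n = 3), and rose by 1.16 (SE 0.08, adjusted p = 3.04e-08) on the log2 scale. Its share in the Il12rb2 counts was not tested. Il12rb1, the partner chain of Il12rb2, was at 25.0 ± 5.74 CPM in activated and 4.24 ± 1.47 CPM in rested cKO cells (SD, n = 3), and rose by 2.57 (SE 0.33, adjusted p = 0.000395) in cKO and by 2.94 (SE 0.42, adjusted p = 0.000835) in control cells on the log2 scale. Il12rb1 was added to the named genes after its values were seen, as the second chain of the same receptor.

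**Figure D3:**
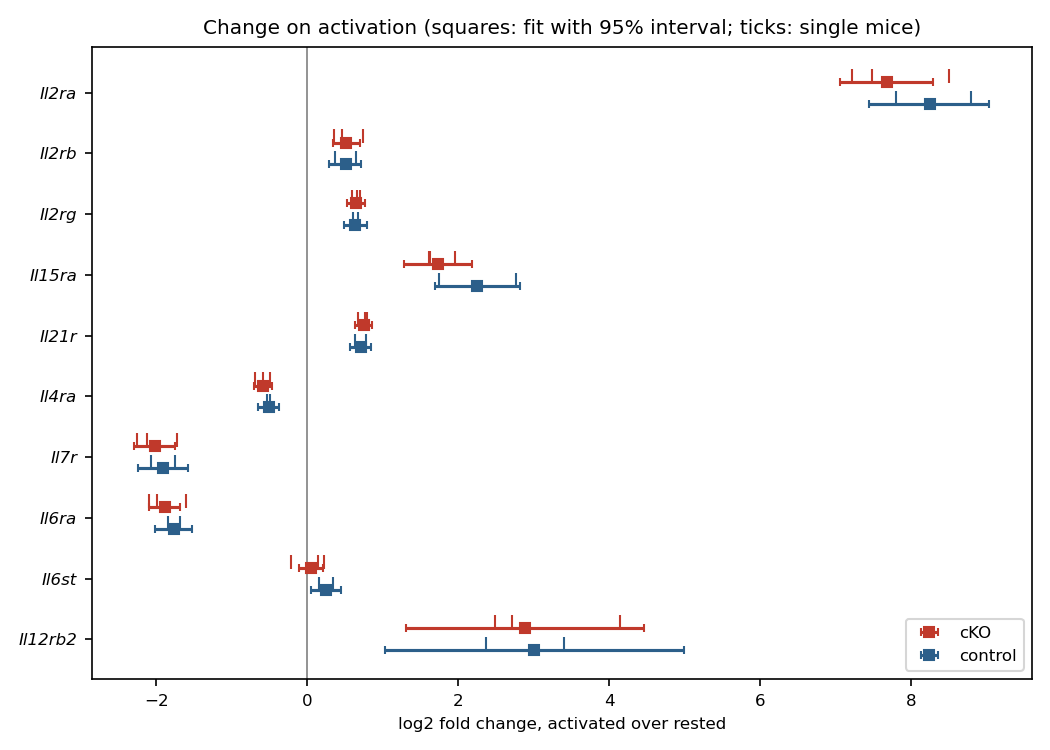
Log2 fold change, activated over rested, of each receptor gene (x axis) in cKO and control cells, with squares for the fit over all libraries, lines for its 95% intervals and ticks for single mice. The intervals of Il2ra lie between 7.06 and 9.04, those of Il7r between -2.29 and -1.58, and that of Il6st includes 0 in cKO cells, where cKO mouse 3 alone has a tick below 0.

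No receptor gene passed the test between cKO and control cells in either state. At rest 0 of the 10 genes passed, against 0.0422% of all genes (8 of 18966), and 0 had an unadjusted p below 0.05, against 783 of all genes. After activation 0 passed, also against 0.0422% (8 of 18966), and 2 of the 10 had an unadjusted p below 0.05, against 1142 of all genes. DESeq2's Wald test called 29 genes at rest and 19 after activation, with 0 of the 10 among them in either state. The median log2 fold change of the 10 genes, cKO over control, was 0.02 after activation and 0.11 at rest, against 0.00 over all genes in both.

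After activation the genes with an unadjusted p below 0.05 were Il21r and Il6st. Il21r was higher in all 3 activated cKO libraries than in both control ones (values above), with a log2 fold change of 0.15 (SE 0.06, 95% interval 0.03 to 0.28, adjusted p = 0.787 by edgeR), and the cKO libraries were also the higher ones at rest (0.11, 95% interval -0.02 to 0.24, adjusted p = 1). Within males the activated difference was 0.08 and within females 0.26. Il6st was lower in all 3 activated cKO libraries, with a log2 fold change of -0.21 (SE 0.08, 95% interval -0.39 to -0.03, adjusted p = 0.806 by edgeR), -0.15 within males and -0.35 within females, and it was -0.11 without cKO mouse 3. At rest the difference was -0.01 (95% interval -0.19 to 0.17). Il2rb was higher in all 3 activated cKO libraries, by 0.17 (95% interval -0.02 to 0.37, adjusted p = 0.838), and by 0.16 (95% interval -0.04 to 0.36, adjusted p = 1) with overlap at rest. Both Il2rb values depend on single mice, with 0.06 after activation without cKO mouse 3, and at rest 0.04 without control mouse 2, 0.10 without cKO mouse 1 and 0.29 without control mouse 1. The activated Il21r value was 0.08 without control mouse 2 and 0.24 without control mouse 1. Libraries of the genotypes did not overlap for these 3 genes after activation and for Il21r at rest, against 17.1% and 17.7% of all genes.

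Il2rb is known to be high on memory-phenotype CD8+ T cells, and the summed level of 14 genes of such cells had the same order as Il2rb over the rested libraries but not over the activated ones. The sum was 1039, 823 and 551 CPM in rested cKO libraries, against 763 and 480.4 CPM in rested control libraries. Over the 5 rested libraries the order of the sums was that of Il2rb, with cKO mouse 1 highest and control mouse 2 lowest. After activation the sum was 770.4, 639 and 617 CPM in cKO libraries, against 570 and 406 CPM in control libraries. There cKO mouse 3 had the highest Il2rb and the lowest sum of the cKO libraries. Il2rb was higher in the activated than in the rested library of each mouse, while the sum was lower in each mouse but cKO mouse 3. Of the 14 genes 0 passed the genotype test in either state. At rest 11 of the 14 were higher in cKO cells, with a median log2 fold change of 0.53. After activation 10 of the 14 were, with a median of 0.45, against 0.00 over all genes in both states. Markers of NK and innate-like lymphocytes, 17 of 19 of them in the table and 16 tested, summed to 40.4 to 53.0 CPM in activated cKO, 31.6 to 41.5 CPM in activated control, 43.9 to 68.7 CPM in rested cKO and 35.2 to 54.7 CPM in rested control libraries, with 0 passing the genotype test. Ncr1 was at 0 counts in all rested libraries. The part of either list in the Il2rb values was not tested.

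The other differences were small or wide. After activation Il2ra differed by 0.12 (95% interval -0.36 to 0.60), Il7r by -0.21 (-0.50 to 0.09), Il6ra by -0.18 (-0.40 to 0.04) and Il15ra by -0.11 (-0.58 to 0.37) on the log2 scale. Il2rg differed by 0.03 (95% interval -0.11 to 0.16) and Il4ra by 0.02 (-0.11 to 0.15). At rest the largest values were those of Il2ra, 0.68 (95% interval -0.24 to 1.60, adjusted p = 1), and Il15ra, 0.41 (-0.12 to 0.94, adjusted p = 1), both low genes in these cells. With no filter on low counts, edgeR called both higher in rested cKO cells (adjusted p = 0.000139 and 0.0345 at the same fold changes) among 204 genes called. That setting also gave far smaller adjusted p-values on activation, such as 2.79e-293 for Il7r in cKO cells against 2.76e-07 with the filter. No other setting called either gene between the genotypes, so these calls depend on that setting. Leaving out 1 mouse gave rested values of 0.35 (without control mouse 2) to 1.07 (without control mouse 1) for Il2ra, and of 0.19 to 0.64 without the same mice for Il15ra, which was 0.27 without cKO mouse 1. Without cKO mouse 3 they were 0.96 and 0.51, and none of these passed the test. After activation Il7r was -0.36 and Il6ra -0.30 without cKO mouse 2, and Il7r was -0.11 without cKO mouse 3. Il12rb2 was the least certain gene, with 0.02 (95% interval -1.62 to 1.66) after activation and 0.14 (-1.89 to 2.17) at rest.

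**Figure D4:**
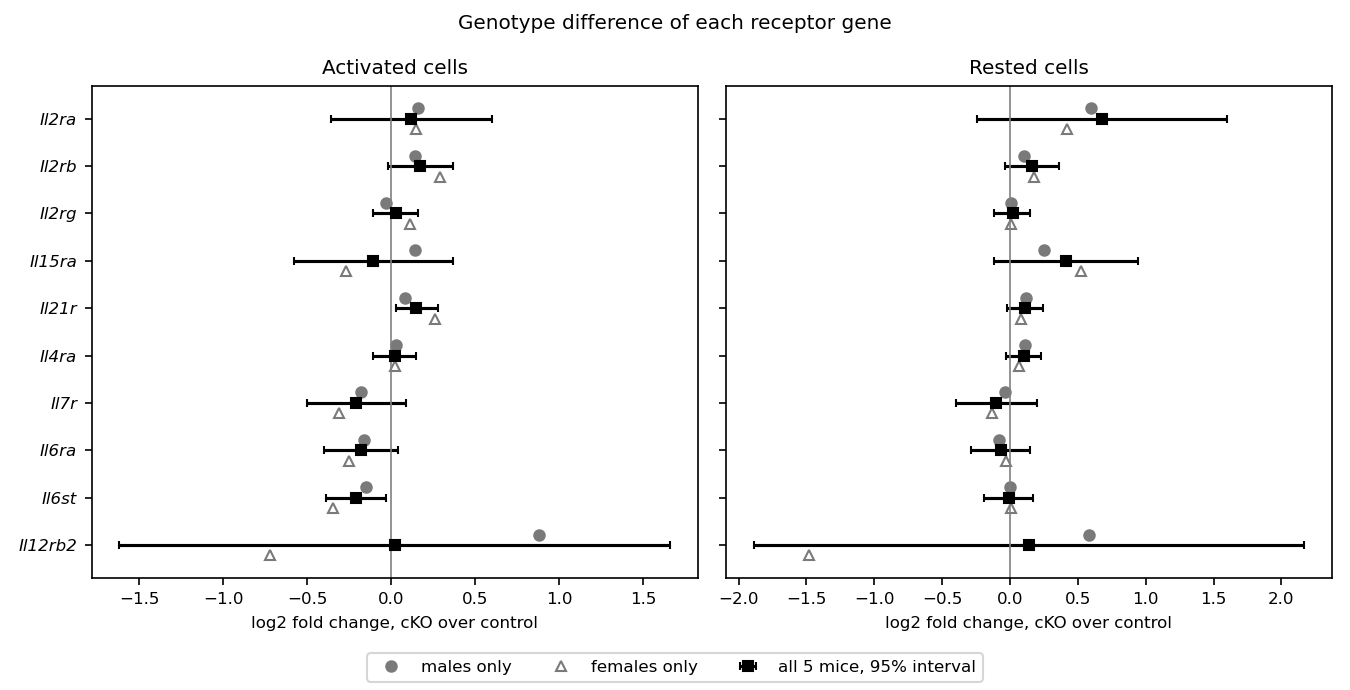
Log2 fold change, cKO over control, of each receptor gene in activated and rested cells (separate x axes), with squares and 95% intervals for all 5 mice and markers for males and females alone. The interval excludes 0 for Il21r and Il6st in activated cells and for no gene at rest, and the male and female values of Il12rb2 lie on opposite sides of 0 in both states.

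The change on activation was compared between the genotypes by the interaction term. It passed for 0 of the 10 genes and for 0% of all 18966 genes by edgeR, with an unadjusted p below 0.05 for 0 of the 10 and 519 of all genes, while DESeq2 called 3 genes, none of these 10. For Il6st, whose activation call was made in control and not in cKO cells, the difference of the 2 changes was -0.20 (95% interval -0.46 to 0.06, adjusted p = 1), and -0.07 without cKO mouse 3 or -0.08 without control mouse 1. For Il15ra it was -0.52 (-1.22 to 0.19) and for Il2ra -0.56 (-1.59 to 0.47), both with an adjusted p of 1. Without control mouse 1 these were -1.01 and -1.08, and without control mouse 2 they were -0.01 and -0.11. For Il2ra it was -0.89 without cKO mouse 3 and -0.29 without cKO mouse 2. For Il2rb it was 0.01 (-0.27 to 0.29) and for Il2rg 0.01 (-0.18 to 0.20).

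Other genes of these pathways were read from 8 lists. On activation 63.4% of all genes passed in cKO cells (31.5% higher, 31.9% lower) and 56.1% in control cells (28.5% higher, 27.6% lower). The counts for each list are to be read beside these shares, and no list was tested as a set. Of 17 ligand genes 7 were tested, and 3 rose and 1 fell on activation in each genotype. Il2 had 5.75 ± 1.09 CPM in activated and 0.128 ± 0.0907 CPM in rested cKO cells, and 3.88 ± 1.47 and 0.150 ± 0.139 CPM in activated and rested control cells (SD, n = 3 and 2), a log2 fold change of 5.50 (adjusted p = 5.24e-09) and 4.70 (adjusted p = 2.21e-07). Lif, a gp130 ligand, reached 6.96 ± 1.37 CPM in activated cKO and 6.71 ± 2.16 CPM in activated control cells, against 0.0467 and 0.0352 CPM at rest, at about the level of 3 counts. Osm, another gp130 ligand, fell by 0.72 in cKO and by 0.71 in control cells on the log2 scale. Of 22 other receptor chains 16 were tested, and 4 rose and 8 fell in each genotype. Those that fell included Il10ra (-1.63 in cKO and -1.58 in control cells), the IL-10-binding chain, and Il10rb (-0.68 and -0.64), while Csf2ra, the GM-CSF receptor alpha chain, rose (1.03 and 1.24).

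All 11 JAK and STAT genes were tested, and 5 rose and 4 fell in cKO cells, and 5 rose and 3 fell in control cells. The STAT5 genes moved apart, with Stat5a at a log2 fold change of 1.46 in cKO and 1.27 in control cells and Stat5b at -1.03 and -1.08. Stat5a had 170 ± 15 CPM in activated and 61.9 ± 2.54 CPM in rested cKO cells, and Stat5b 173 ± 10.6 and 352 ± 13.4 CPM (SD, n = 3). Jak1, the kinase that binds the ligand-specific chains, fell by 1.17 in cKO and by 1.06 in control cells. Jak3, the kinase that binds the common gamma chain, had 86.5 ± 2.36 CPM in activated and 98.0 ± 4.81 CPM in rested cKO cells (SD, n = 3) and fell there by 0.18 (adjusted p = 0.00553) on the log2 scale. In control cells it had 90.0 ± 0.485 CPM activated and 87.4 ± 5.46 CPM rested (SD, n = 2; adjusted p = 0.564), and the difference of the 2 changes was -0.22 with an adjusted p of 1.

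Of 13 feedback inhibitors 8 rose and 3 fell in cKO cells, and 6 rose and 3 fell in control cells. Cish, a STAT5 target that dampens cytokine signals, rose by 4.31 in cKO and 4.14 in control cells on the log2 scale, and the phosphatase genes Ptpn6 (1.58 and 1.60) and Ptpn2 (0.87 and 0.98) and the adaptor gene Sh2b3 (0.82 and 0.86) also rose. Of 20 cytokine-response targets 12 rose and 5 fell in cKO cells, and 11 rose and 4 fell in control cells, with the kinase gene Pim2 at 2.14 and 2.09 and the lymphotoxin gene Lta at 3.68 and 3.67. Of 18 transcription factors known to act at receptor genes 9 rose and 7 fell in cKO cells, and 8 rose and 7 fell in control cells. Gfi1, known as a repressor of Il7r in CD8+ T cells, rose by 3.29 in cKO and 3.38 in control cells. The NF-kB genes Nfkb1 (2.03 and 2.13) and Rel (1.82 and 1.88) rose, while Runx3 fell (-0.98 and -0.76). The part of these factors in the receptor values was not tested. Of 8 genes of receptor shedding and trafficking 4 rose and 2 fell in cKO cells, and 3 rose and 2 fell in control cells, among them the ubiquitin ligase genes Cbl (-0.87 and -0.72) and Cblb (0.65 and 0.61). Of the 14 memory-phenotype genes 4 rose and 4 fell in cKO cells, and 5 rose and 3 fell in control cells.

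Between the genotypes, and in the interaction, 0 genes of these 8 lists passed the edgeR test in either state. Over all genes 0.0422% passed between the genotypes in each state, and 0% in the interaction. In each list the gene of smallest p after activation had an adjusted p of 0.656 (Nkg7) or more. These genes went both ways in log2 fold change of activated cKO over activated control cells. Il2 was at 0.74 (95% interval 0.22 to 1.25, adjusted p = 0.708) and Cish at 0.32 (0.07 to 0.57, adjusted p = 0.769), both with overlap. Stat5a was at 0.18 (0.03 to 0.33, adjusted p = 0.806), Bcl2 at 0.21 and Nkg7 at 0.42. Lower in cKO cells were Runx3 at -0.15 (-0.28 to -0.03, adjusted p = 0.769) and Cbl at -0.17 (-0.31 to -0.03, adjusted p = 0.769). The low gene Il13ra1 was at -1.22 (-2.72 to 0.28, adjusted p = 0.84). At rest the survival gene Bcl2 was at 0.26 (95% interval 0.08 to 0.43, adjusted p = 1) and Jak3 at 0.15 (0.03 to 0.27, adjusted p = 1). The genes of smallest p in the other lists were also higher in rested cKO cells. Among them were Eomes at 0.76 (0.06 to 1.46) and Ccl5 at 0.68 (0.31 to 1.05, adjusted p = 0.941), both with overlap.

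Some of the 10 genes lie beside each other. Il2ra (chr2:11647618-11698004, mm39) and Il15ra (chr2:11710101-11739128) are 12.1 kb apart, and the tested gene on the far side of Il15ra, Fbh1, fell on activation (-0.85 in cKO and -0.78 in control cells). Rbm17, on the other side of Il2ra, rose by 0.65 and 0.57. The uncharacterised gene Gm37881 overlaps Il2ra by 421 bases on the same strand, and had 4.79 ± 0.521 CPM in activated cKO cells (SD, n = 3), so its reads and those of Il2ra are uncertain where they share sequence. Il4ra (chr7:125151292-125178646) and Il21r (chr7:125202601-125232742) are 24.0 kb apart and changed in opposite directions. Gm42809 overlaps Il6ra by 281 bases on the opposite strand at 0.724 ± 0.103 CPM in activated and 2.00 ± 0.0768 CPM in rested cKO cells. Il23r, the IL-23 receptor gene next to Il12rb2, did not pass the test (1.50, adjusted p = 0.151, in cKO and 1.82, adjusted p = 0.195, in control cells).

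Genes whose pattern over the 10 libraries was most like that of each receptor gene were found by the root mean square difference of centred log2(CPM + 0.5) among 8525 named genes. Il7r was closest to Acss1, an acetyl-CoA synthetase gene (0.041), and Slc12a7 (0.0564). Il2ra was closest to Bcat1, a branched-chain aminotransferase gene (0.271), and to the transcription factor gene Irf4 (0.296). Il6ra was closest to Rapgef4 (0.0511) and Tdrp (0.0537), Il2rg to Ppp1r10 (0.0467) and Abt1 (0.0477), and Il4ra to Uqcc3 (0.044) and Ndufa6 (0.0464). Il21r was closest to Csnk2b (0.0603) and Asf1a (0.0626), Il6st to Kctd3 (0.0683) and Helz2 (0.0696), Il2rb to Adora2a (0.0879) and Cldnd1 (0.0892), and Il15ra to Per2 (0.128) and Fbxw8 (0.133). The low gene Il12rb2 had the poorest matches, the checkpoint receptor genes Tigit (0.348) and Ctla4 (0.408). The libraries share the activation contrast, so the values describe likeness only.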

How the data were processed

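RNA of splenic CD8+ T cells of 5 mice was sequenced in 10 libraries, prepared per the labels' protocols with a kit that keeps the strand. The submitters' processing notes name the build mm39 and Subread, FastQC and MultiQC. No settings, annotation release or use of strand in counting were found in those sources. Per gene, the deposited counts are whole numbers that show no normalization by the authors. The FPKM values deposited beside them were recomputed from count, gene length and column sum within a relative deviation of 9.4e-07, and served for levels between genes and for alternatives.

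Analysis of the counts used edgeR 4.0.16 in R 4.3.3, with TMM scaling and filterByExpr, which kept 18966 of 57010 genes (24326 had no count). The robust quasi-likelihood model held 4 group means and a sex term, with 5 residual degrees of freedom and a biological coefficient of variation of 9.14%. P-values were adjusted over all genes tested by Benjamini and Hochberg's method, and a gene passed below 0.05. SEs were computed from the fold change and the F statistic. Values for 1 sex come from that sex alone, and those for females, 1 mouse per genotype, have no test. The fit was tested on simulated counts with known changes. Library totals were 51203786 to 65135435 counts, and floors cover counting error only. Libraries of a group were distinct (chi-square per degree of freedom 9.23 to 45.99).

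The 10 genes, the lists and the tests were chosen with earlier results of these data known. All 10 are described in each comparison. From each list, up to 4 genes of smallest p with at least 1 CPM could be named on activation, and the gene of smallest p between genotypes. Jak3 on activation and Il12rb1 were chosen after their values were seen, and Serbp1, Gm37881 and Gm42809 because they overlap a receptor gene. Strand was looked up by gene identifier in a GENCODE annotation of another build. Groups and sex follow the characteristics and the library names, and the sexes also differ in the number that opens the mouse name. The mice were separate animals.

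The 2 libraries of a mouse are paired by design, and as a check their departures from the group means were correlated over genes, at 0.255, 0.146 and 0.334 for cKO mice 1 to 3 and 0.356 for the control mice, which mirror each other. Alternatives were DESeq2 1.42.0 (its size factors, or its Wald test), no low-count filter or one of 5 CPM in 2 libraries, leaving out the sex term, the mouse as a replicate block, limma 3.58.1 on log2(FPKM + 0.5) and log2(FPKM + 0.1), the compared groups alone, 1 sex alone and leaving out each mouse. Python 3.11.15 made tables and figures.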

Additional observations from a re-analysis of the deposited data

Results flagged for a closer look

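For Il6st the change on activation ran in opposite directions in the sexes within cKO mice. The female cKO mouse 3 had a log2 change of -0.22, against 0.22 and 0.14 in the male cKO mice 1 and 2. In the control mice it was 0.16 in the female and 0.34 in the male. The difference between the sexes was not tested, and it rests on 1 female cKO mouse, the one whose titles conflict with its other labels.

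For Il12rb2 the genotype difference ran in opposite directions in the sexes in both states. After activation the mean log2 CPM of cKO over control was -0.73 in females and 0.76 in males, and at rest it was -1.47 in females and 0.52 in males. Each female value compares 1 cKO with 1 control mouse, and each male value 2 cKO mice with 1 control mouse. These differences were not tested, and the same mice enter both states.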

How the results depend on the processing

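Of the alternative values with a test for single receptor genes, 288 of 300 in the activation comparisons and 399 of 440 in the genotype comparisons and the interaction kept their direction and their side of the threshold. Those that changed sign were values of genes that did not pass the test. The calls that were lost or gained were those of Il6st and Il12rb2 on activation and of Il2ra and Il15ra at rest without a low-count filter, all given with their results. The cause of these changes was not tested.

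Between the genotypes the number of all genes called, 8 in each state, was 204 at rest and 211 after activation with no low-count filter, with 2 of the 10 receptor genes among the 204, and 5 in both states with the stricter filter. DESeq2's Wald test called 29 and 19, limma on log2(FPKM + 0.5) 5 and 4, limma on log2(FPKM + 0.1) 5 after activation, the compared groups alone 5 after activation, and males alone 16 at rest. For the interaction, 39 genes were called with no low-count filter, 3 by DESeq2 and 2 in males alone, against 0. Leaving out each mouse gave 7 to 25 genes at rest and 6 to 49 after activation, in both cases most without cKO mouse 2, 0 to 3 for the interaction (3 without cKO mouse 3), and 6981 to 10646 for activation of control cells, fewest without control mouse 2, against 10631. The receptor genes called on activation numbered 8 to 10 in each genotype. With the mouse as a replicate block the paired fit called 9 of the 10 in each genotype, and no other call of theirs changed.

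For cKO over control at rest, log2 values ranged over the fits without 1 mouse from -0.02 to 0.04 for Il2rg, -0.25 to 0.02 for Il7r, -0.12 to 0.07 for Il6st and -0.60 to 0.89 for Il12rb2. After activation they ranged from -0.01 to 0.25 for Il2ra, -0.02 to 0.09 for Il2rg, -0.02 to 0.07 for Il4ra, -0.37 to 0.18 for Il15ra and -0.98 to 1.01 for Il12rb2. For activation of cKO cells Il6st ranged from -0.04 to 0.18. For the interaction they ranged from -0.11 to 0.15 for Il2rb, -0.01 to 0.07 for Il2rg, -0.27 to 0.07 for Il7r, -0.03 to 0.14 for Il21r and -0.38 to 0.63 for Il12rb2.

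Other settings also turned the sign of values near 0. Il6st at rest was 0.01 with the compared groups alone and 0.00 in males alone, and Il12rb2 at rest was -0.00 by DESeq2, -0.06 by limma on log2(FPKM + 0.1) and -0.13 with the compared groups alone. After activation Il2rg was -0.03 and Il15ra 0.14 in males alone, and Il12rb2 was -0.07 by DESeq2. In the interaction Il2rg was -0.03 and Il21r -0.04 in males alone, and Il12rb2 was 0.07 with the replicate block, 0.07 and 0.11 by limma on log2(FPKM + 0.5) and log2(FPKM + 0.1), and 0.30 in males alone.

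Il12rb2 and Il2ra had the lowest levels at rest, 0.332 to 2.47 CPM, above the 3 counts of the floor. With 3 and 2 mice per genotype, females of 1 mouse each, and cre in all cKO mice, differences of the size of the intervals given cannot be told apart from the spread between mice.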
